A study of Mus musculus with 6 samples.

Results

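The genes described here encode the integrin subunits, the laminin chains and 4 proteins that tie laminin into basement membranes, namely the nidogens Nid1 and Nid2, perlecan (Hspg2) and agrin (Agrn). They were chosen by symbol. A probe set counted when the array annotation gave it a single gene that was named as an integrin alpha or beta subunit, as a laminin alpha, beta or gamma chain, or as 1 of those 4. This gave 82 of the 45101 probe sets of the array and 38 of 18193 named genes, of which 24 carry an integrin name and 10 are laminin chains. The name pattern was applied as written. It therefore took in Itgbl1, a secreted integrin-like protein that is not a receptor subunit, and left out Itga2b and Itgae.

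Cochlear sensory epithelia (CSE) of adult Swiss Webster mice aged 8 weeks were compared with CSE of mice at postnatal day 3 (P3), on 3 arrays per stage. Each array held RNA of a separate pool from 20 mice, and no allele or treatment differed between the stages. By the methods, the pieces of both stages held hair cells and supporting cells, those of the adult also the inner sulcus and interdental cells, and those of P3 also the greater and lesser epithelial ridges. Age and the makeup of the dissected piece therefore cannot be told apart, and fewer cells of a type cannot be told apart from less RNA per cell.

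Laminins are secreted as heterotrimers of an alpha, a beta and a gamma chain that join into a sheet at the base of epithelia and around vessels, muscle and nerve. Nidogens bridge this sheet to collagen IV, and perlecan and agrin are heparan sulphate proteoglycans bound to it. Integrins are pairs of an alpha and a beta subunit that span the cell membrane and link this matrix to the cytoskeleton. In the cochlea, such a basement membrane underlies the sensory epithelium on the basilar membrane.

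The values are signal intensities of probe sets, groups of short probes that measure the same transcript, and signals of different probe sets cannot be ranked against each other. The background level of an array, set from receptor genes of other sense organs, lay between 6.39 and 33.6, and between 48.1% and 67.8% of probe sets exceeded it. P3 replicate 1 stood apart from the other 5 arrays, with the highest background and a 3' to 5' signal ratio of the Gapdh control probe sets of 82.0, against 0.707 to 2.07 elsewhere. Of 6 hair cell markers on the array, 5 were above background on at least 3 arrays, among them Myo7a and Otof, and Slc26a5 was not on any. All 7 supporting cell markers were above it. Of the 82 probe sets, 54 exceeded background on at least 3 of the 6 arrays and were tested, and they stood for 34 of the 38 genes. The other 28 probe sets never exceeded a signal of 36.7. Log2 fold changes (log2 FC) are adult minus P3 from limma, and a gene was called where its brightest probe set had an adjusted p under 0.05 and differed by 2-fold or more. The p-values were adjusted over all 28967 probe sets tested.

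In the setting reported, 6 of the 14 laminin, nidogen, perlecan and agrin genes and 2 of the 20 integrin genes measured were called. This split depended on the setting. Of the 34 genes measured, 8 were lower in the adult CSE and none was higher. These were the laminin chains Lama4, Lamb1 and Lamc1, the nidogens Nid1 and Nid2, Agrn, and the integrin subunits Itga6 and Itgb6. Over the brightest probe sets of all 13721 genes measured, 5.56% were called lower and 4.58% higher in the adult (10.1% in either direction). At single probe sets, 10 of 54 were called lower (3.89% of all probe sets) and none higher (3.39% of all, 7.28% either way). At an unadjusted limma p under 0.05, 14 of the 34 genes were lower and 5 higher in the adult, and the 5 were Itgav, Itgb5, Itgb2, Lamb2 and Lamb3. Such a p, in either direction, was found for 19 of the 34 genes and for 3977 of all 13721 genes. The 3 adult arrays all lay below the 3 P3 arrays for 15 genes (20.4% of all genes) and all above them for 6 (16.0% of all genes), so that the stages did not overlap for 21 of 34 genes (36.4% of all genes). By probe set, the adult arrays were all lower for 17 of 54 and all higher for 7, beside 15.7% and 15.5% of all probe sets (31.2% without overlap). With 1 array left out, 5 (without P3 replicate 2 or 3) to 9 genes (without P3 replicate 1) were called lower. Over all 28967 probe sets, 343 to 1442 were called lower in these fits. Itgb5 was called higher without adult replicate 1 and Itgb2 without P3 replicate 1. With array quality weights, 11 genes were called lower and 6 higher, and by family 11 were integrins and 6 were not. Over all 28967 probe sets, these weights gave 3188 called lower and 4404 higher, beside 1127 and 982 in the reported setting. With quantile normalization, 4 integrins and 5 of the other family were called, and with signals floored at background 5 and 6. Fewer were called lower with arrays scaled to the same median (Nid2 and Itgb6, 2 genes) or without limma's intensity trend (Nid2, Itgb6, Lama4 and Lamb1, 4 genes). Calls fell over the whole array too, to 285 and 491 probe sets lower, from 1127. The median log2 FC was -0.43 over the 34 genes, -0.97 over the 14 laminin, nidogen, perlecan and agrin genes and 0.04 over the 20 integrin genes, beside -0.04 over all genes. Itgb6 and Lama3 passed the background filter only through their P3 arrays.

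**Figure D1:**
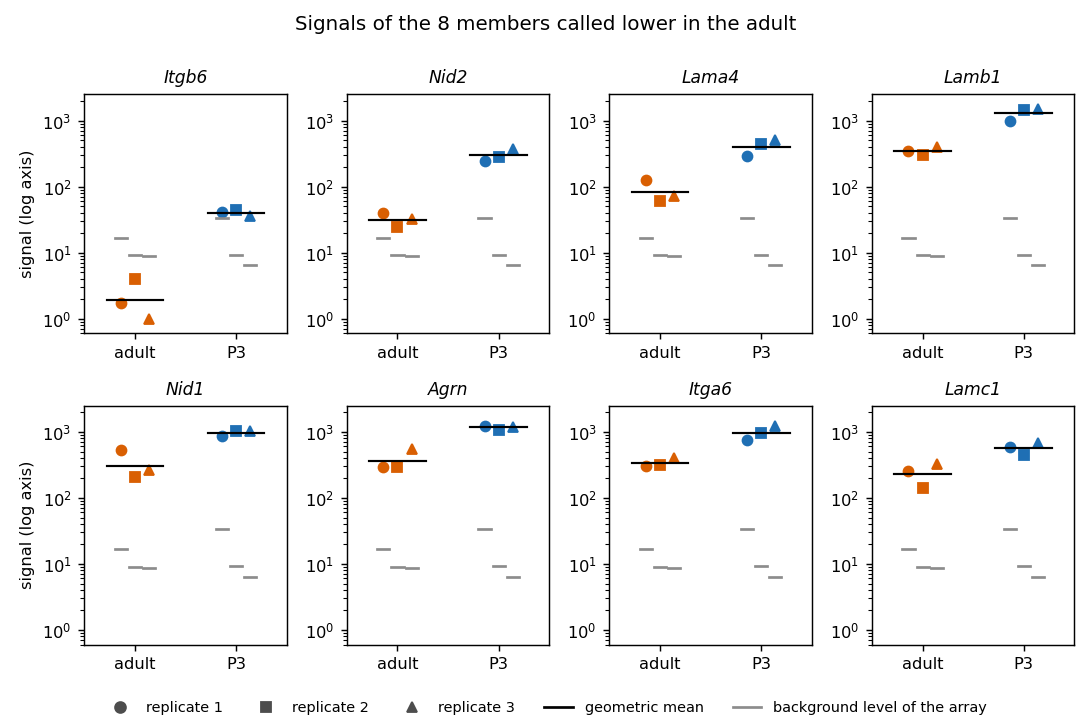
Signals (log axis) of the 8 genes called lower in the adult, with 3 adult arrays in orange left of 3 P3 arrays in blue, the marker shape giving the replicate, a black line at the geometric mean of a stage and a grey line at the background of each array. In every panel the adult arrays lie below the P3 arrays, and Itgb6 lies below background on all 3 adult arrays.

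Nidogen 2 fell most among the linking proteins. Nid2 (probe set 1423516_a_at) had signals of 40.0, 24.3 and 32.5 in the adult CSE, against 246, 285 and 373 at P3. All 3 adult arrays were far below the lowest P3 array, and all 6 arrays were above background. The log2 FC was -3.23 (SE 0.30, limma adjusted p = 0.00119), a 9.38-fold difference. Nid1 (1416808_at) had signals of 522, 204 and 262 in the adult CSE, against 874, 1019 and 1021 at P3. Adult replicate 1 was the highest adult array and still below every P3 array. The log2 FC of Nid1 was -1.68 (SE 0.34, adjusted p = 0.0228). It was not called without adult replicate 2 or 3 or P3 replicate 2 or 3 (adjusted p = 0.0562, 0.115, 0.0695 and 0.0713), and its other 2 probe sets tested, with log2 FC of -0.56 and -1.33, were not called.

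Agrin, known for clustering acetylcholine receptors at the neuromuscular synapse, had signals of 297, 297 and 551 in the adult CSE, against 1229, 1079 and 1192 at P3 (1426670_at). The 3 P3 arrays were close together and adult replicate 3 was the highest adult array. The log2 FC was -1.67 (SE 0.28, adjusted p = 0.0112). Perlecan did not pass the test. Hspg2 had signals of 164, 104 and 141 in the adult CSE, against 245, 112 and 94.9 at P3, where replicate 1 alone exceeded every adult array. Its log2 FC was -0.04, with a 95% confidence interval from -0.92 to 0.84, and it was 0.38 without P3 replicate 1. A second Hspg2 probe set had a log2 FC of -0.59 and was not called either.

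Among the laminin alpha chains, Lama4, a chain of vessel and mesenchymal basement membranes, was the only one called with all arrays. Its signals were 125, 60.2 and 71.9 in the adult CSE, against 288, 439.7 and 516 at P3 (1424807_at). P3 replicate 1 was the lowest P3 array and still well above adult replicate 1. The log2 FC was -2.30 (SE 0.34, adjusted p = 0.00692), a 4.94-fold difference. Lama2, the chain of muscle and peripheral nerve that is mutated in a congenital muscular dystrophy, had signals of 224, 139 and 204 in the adult CSE, against 245, 384 and 415 at P3. The arrays of the stages did not overlap. Its log2 FC of -0.87 (95% confidence interval -1.54 to -0.21) was not called with all arrays (adjusted p = 0.111) and was -1.11 and called without P3 replicate 1 (adjusted p = 0.0383).

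The other alpha chains were dim or varied within a stage. Lama3, a chain of the skin's epidermal basement membrane, was above background on no adult array, with signals of 9.69, 8.56 and 8.63 in the adult CSE, against 36.9, 16.0 and 11.1 at P3. Lama1, the chain of early embryonic laminin, was above background on 2 arrays of each stage, and its log2 FC was -0.32 (95% confidence interval -1.97 to 1.32). Lama5, a chain of most mature epithelial and vessel basement membranes, had signals of 69.4, 64.0 and 103 in the adult CSE, against 15.0, 84.7 and 67.1 at P3. P3 replicate 1 was the array that stood low, and the second Lama5 probe set had the other sign, with log2 FC of 0.81 at the brighter and -0.45 at the dimmer. Neither was called.

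Of the 3 beta chains, Lamb1 fell and the other 2 did not pass the test. Lamb1, the chain of most laminins in growing tissue, had signals of 344, 299 and 395 in the adult CSE, against 988, 1463 and 1488 at P3 (1424114_s_at). The log2 FC was -1.91 (SE 0.25, adjusted p = 0.00400). A second Lamb1 probe set was called too, with a log2 FC of -2.08 (adjusted p = 0.0120), and the remaining one tested was not, with 10.6 on P3 replicate 1 against 135 and 133 on the other P3 arrays. Lamb2, which is known from the mature neuromuscular synapse and the kidney glomerulus, had signals of 151, 168 and 206 in the adult CSE, against 59.1, 117 and 123 at P3. Lamb3, a partner of Lama3 in skin, had signals of 30.2, 46.6 and 59.4 in the adult CSE, against 22.6, 18.0 and 14.2 at P3. For both genes every adult array was above every P3 array. Their log2 FC were 0.87 (95% confidence interval 0.11 to 1.63, adjusted p = 0.155) and 1.29 (0.25 to 2.32, adjusted p = 0.128), and neither was called. Within an array, the log2 ratio of the Lamb1 to the Lamb2 signal was on average 2.78 lower in the adult than at P3. This pair was chosen after its values were seen, and the difference is given without a test.

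Lamc1, the gamma chain shared by most laminins, had signals of 258, 140.5 and 321 in the adult CSE, against 583, 443 and 686 at P3 (1423885_at). The arrays of the stages did not overlap. The log2 FC was -1.31 (SE 0.33), and its adjusted p of 0.0493 was just under the threshold. The call was lost with any single array left out (adjusted p = 0.0725 to 0.149) and in 13 of 16 other settings in all. A second Lamc1 probe set was above background on 2 adult arrays and 1 P3 array, with a log2 FC of 0.08. Lamc3 had a log2 FC of 0.60 and was not called.

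**Figure D2:**
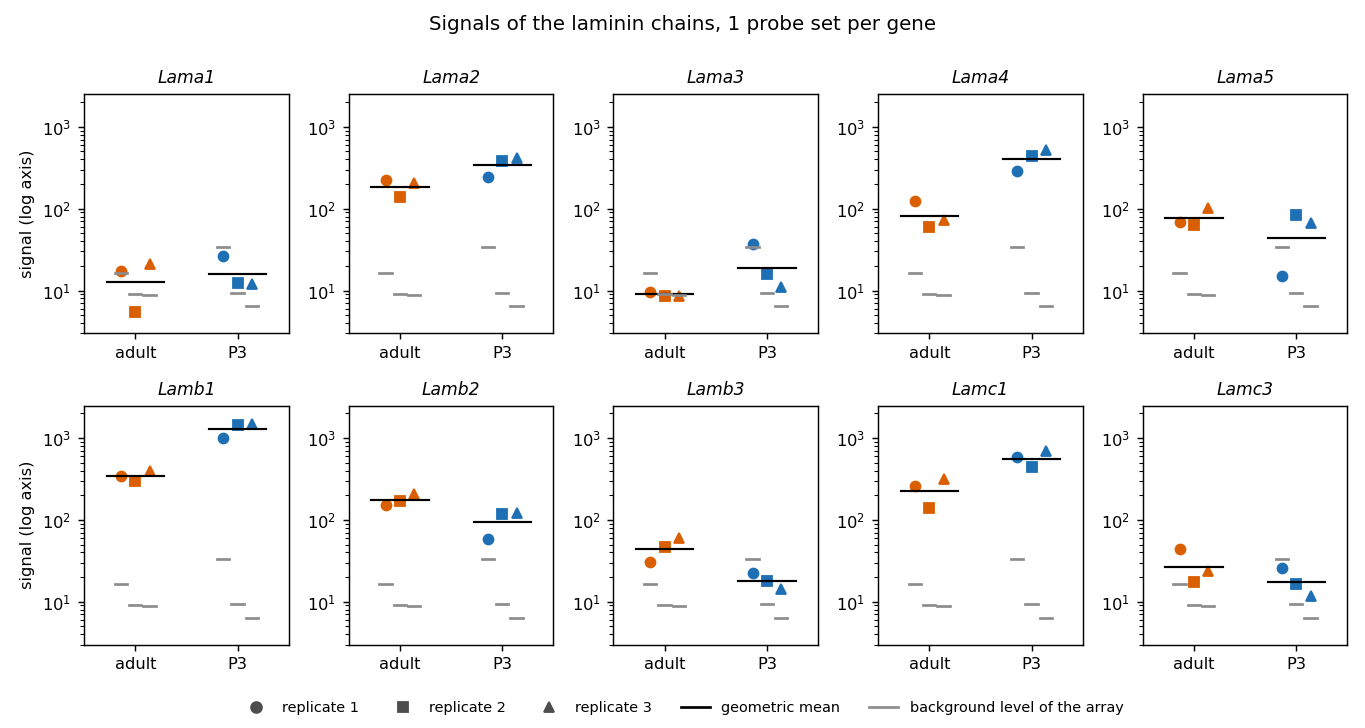
Signals (log axis) of the 10 laminin chains at their brightest probe set, adult arrays in orange left of P3 arrays in blue, with marker shapes for replicates, black lines at geometric means and grey lines at the background of each array. Adult arrays lie below all P3 arrays for Lama2, Lama3, Lama4, Lamb1 and Lamc1 and above them for Lamb2 and Lamb3, and levels are not comparable between panels.

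The summed signal of 7 fibroblast and mesenchyme markers was 7685 to 9610.5 on the adult arrays, against 15016 to 36435 on the P3 arrays, with 1 of the 7 called lower (Col3a1). The log2 FC of the other 6 were negative but not called, and those of Dcn and Twist1 were -0.07 each. For 8 endothelial markers the sum was 804 to 1303 on the adult arrays, against 915 to 1649 on the P3 arrays, and none was called. Other sums were higher in the adult. For 6 pericyte and smooth muscle markers the sum was 2475 to 3344 on the adult arrays, against 1669 to 2338 on the P3 arrays, and none was called. For 7 supporting cell markers it was 15167 to 18743, against 6378 to 9767, with 2 called higher and 2 lower. Those called higher were Gjb6 (log2 FC 2.19) and S100a1 (2.06), and those called lower were Sox2 (-2.48) and Jag1 (-2.15). Bright probe sets weigh most in such a sum, here Gjb2, Gjb6 and S100a1, so it does not stand for every marker. Over all genes, 4.58% were called higher and 5.56% lower. The part of any of these cell types in the falls of Lama4, Lamb1, Lamc1, Nid1 and Nid2 was not tested.

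The start regions of the called genes are shown because each of these genes was called lower in the adult. Shared regulation was not tested. The RefSeq promoter table (GRCm38.p6) held 4 of the 8, Agrn, Itgb6, Lamb1 and Nid1. The 250 bases before a start are given 5′ to 3′ on the gene's strand, with capitals for matches on either strand to the GC box (GGGCGG), the CCAAT box (CCAAT), the TATA box (TATAAA) or the AP-1 site (TGANTCA). Lamb1 lies on chr12:31265043-31265292 (plus strand), Nid1 on chr13:13437352-13437601 (plus), Agrn on chr4:156197489-156197738 (minus) and Itgb6 on chr2:60722604-60722853 (minus).
Lamb1: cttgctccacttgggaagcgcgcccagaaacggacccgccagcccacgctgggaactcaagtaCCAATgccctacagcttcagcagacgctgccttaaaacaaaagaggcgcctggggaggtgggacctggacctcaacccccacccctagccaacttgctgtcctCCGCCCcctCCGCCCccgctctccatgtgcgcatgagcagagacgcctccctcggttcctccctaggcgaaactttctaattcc
Nid1: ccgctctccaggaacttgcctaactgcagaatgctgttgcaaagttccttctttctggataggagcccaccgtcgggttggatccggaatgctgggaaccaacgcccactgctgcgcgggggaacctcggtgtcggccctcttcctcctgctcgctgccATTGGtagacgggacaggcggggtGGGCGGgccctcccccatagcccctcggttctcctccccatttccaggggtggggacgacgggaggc
Agrn: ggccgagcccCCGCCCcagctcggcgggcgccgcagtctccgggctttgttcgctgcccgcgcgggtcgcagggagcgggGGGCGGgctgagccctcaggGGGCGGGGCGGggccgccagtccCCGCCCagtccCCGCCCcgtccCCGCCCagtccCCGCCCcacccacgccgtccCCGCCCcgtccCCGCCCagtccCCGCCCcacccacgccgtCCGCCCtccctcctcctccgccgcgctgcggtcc
Itgb6: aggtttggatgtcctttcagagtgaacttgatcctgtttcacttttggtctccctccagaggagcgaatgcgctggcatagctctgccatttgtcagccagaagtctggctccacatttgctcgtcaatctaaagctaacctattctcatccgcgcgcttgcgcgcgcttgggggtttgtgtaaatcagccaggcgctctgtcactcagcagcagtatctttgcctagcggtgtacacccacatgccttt
Lamb1 and Nid1 each held 1 CCAAT box and had 2 and 1 GC boxes. The Agrn window had 12 GC boxes, some of which overlap, and a GC content of 83.6%, and the Itgb6 window had no match and a GC content of 52.0%. Among 32851 windows of this length, a GC box was found in 32.7%, a CCAAT box in 33.8%, a TATA box in 12.4% and an AP-1 site in 6.75%, and the median GC content was 52.4%. None of the 4 windows had a TATA box or an AP-1 site. A second start in the table had 2 GC boxes for Agrn and no match for Itgb6.

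Among the integrin subunits that bind laminin, Itga6 fell and its relatives did not pass the test. Itga6, the subunit that pairs with Itgb1 or with Itgb4, had signals of 304, 311 and 398 in the adult CSE, against 754, 960.4 and 1225 at P3 (1422445_at). The log2 FC was -1.52 (SE 0.25, adjusted p = 0.0102), and the second probe set gave -1.34 (adjusted p = 0.0129). Both were called. Itgb4, the partner of Itga6 in hemidesmosomes, had signals of 87.3, 27.0 and 50.4 in the adult CSE, against 2.18, 28.1 and 41.5 at P3. The stages overlapped, and P3 replicate 1 was far below the other P3 arrays. Its log2 FC was 1.85 (95% confidence interval -0.55 to 4.25). Itga3, an epithelial laminin receptor subunit, and Itga7, that of muscle, had log2 FC of 0.75 (-0.17 to 1.68) and 0.83 (-0.73 to 2.40). For both, adult replicate 2 was at the P3 level and the other 2 adult arrays were higher.

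Itgb1, the beta subunit shared by most matrix-binding integrins, was called lower in the adult CSE when P3 replicate 1 was left out and not with all arrays. It had signals of 118, 186 and 133 in the adult CSE, against 97.8, 298 and 304 at P3, so that P3 replicate 1 was below all adult arrays and the other P3 arrays above them. With all arrays the log2 FC was -0.53 (95% confidence interval -1.55 to 0.48, adjusted p = 0.514). Without P3 replicate 1 it was -1.07 (adjusted p = 0.0407) and called. The other 2 probe sets of Itgb1 tested likewise had their lowest signal on P3 replicate 1, 78.9 and 1.39. A signal on that array of less than 0.5 times both other P3 arrays was found for 4 of the 34 genes (Itga2, Itgb1, Itgb4 and Lama5) and for 10.9% of all genes. A signal of more than 2 times both was found for 4 (Hspg2, Itga5, Lama1 and Lama3) and for 11.5% of all genes.

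Of the subunits that recognise the RGD motif of fibronectin, vitronectin and latent TGF-beta, Itgb6 was called lower in the adult. Itgb6, an epithelial subunit that pairs with Itgav, had signals of 1.75, 3.96 and 0.986 in the adult CSE, against 41.2, 43.5 and 35.6 at P3 (1422983_at). No adult array and all 3 P3 arrays were above background, P3 replicate 1 only narrowly. Set against background, the P3 level was at least 3.65-fold that of the adult, with a fitted log2 FC of -4.40 (adjusted p = 0.0145), which was -1.87 with signals floored at background (adjusted p = 0.0397). The call was lost without P3 replicate 2 or 3 (adjusted p = 0.0899 and 0.0773). This probe set passed the background filter only through its P3 arrays, so its p-value is no separate evidence of the difference. With a filter of 4 arrays it was not tested, and Itgb6, then represented by its other probe set, was not called (adjusted p = 0.315). A second Itgb6 probe set had 11.1, 9.86 and 8.57 in the adult CSE, against 40.7, 26.3 and 10.4 at P3, and was not called (log2 FC -1.19, adjusted p = 0.322).

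Itga8, a subunit known in mice to be needed for hair cell stereocilia of the inner ear, had signals of 468, 1179 and 732 in the adult CSE, against 1843, 2642 and 1600.5 at P3. All adult arrays were lower. Its log2 FC of -1.42 (SE 0.36) missed the threshold narrowly (adjusted p = 0.0503) and was -1.76 and called without adult replicate 2 (adjusted p = 0.0308). At a second and dimmer Itga8 probe set the stages overlapped, with a log2 FC of -2.49 (adjusted p = 0.148), not called. Itgb3, the vitronectin receptor subunit of platelets, osteoclasts and vessels, had 2.70, 48.9 and 10.7 in the adult CSE, against 57.9, 43.9 and 81.3 at P3. Adult replicate 2 reached the P3 range, and the log2 FC of -2.40 (adjusted p = 0.163) was -3.46 and called without that array (adjusted p = 0.0394). The summed signal of 5 platelet markers was highest on adult replicate 2, at 1509, against 311 and 432 on the other adult arrays and 208 to 429 on the P3 arrays. Itgb3 itself was higher on P3 replicates 1 and 3 than on adult replicate 2. The part of platelets in the signal of Itgb3 was not tested.

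Itgav and Itgb5, which form a vitronectin receptor together, were above P3 on every adult array at their brightest probe sets, but neither passed the test. Itgav had signals of 1548, 1755 and 2108 in the adult CSE, against 1274, 953 and 957 at P3, a log2 FC of 0.77 (95% confidence interval 0.21 to 1.33, adjusted p = 0.0990). At a second and much dimmer Itgav probe set the stages overlapped, with a log2 FC of 0.31, not called. Itgb5 had 619.6, 1089 and 1326 in the adult CSE, against 564, 539 and 602 at P3. Its log2 FC was 0.76 (0.08 to 1.44, adjusted p = 0.164), and its other 3 probe sets gave 0.53 to 0.75. At the Itgb5 probe sets 1456195_x_at and 1456133_x_at the stages overlapped. Without adult replicate 1, the lowest adult array, Itgb5 was called at 1.08 (adjusted p = 0.0384). Itgb8, another partner of Itgav that activates TGF-beta, had 1474, 865 and 982 in the adult CSE, against 902, 1020.4 and 1152 at P3, a log2 FC of 0.08 (-0.52 to 0.68). Itga5, the fibronectin receptor subunit, was dim, above background on 1 adult array and on all 3 P3 arrays, with a log2 FC of -2.96 (-6.05 to 0.13).

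Of the collagen-binding subunits, Itga1 had signals of 19.7, 15.1 and 22.7 in the adult CSE, against 70.3, 41.1 and 58.7 at P3. The stages did not overlap, and the log2 FC was -1.55 (adjusted p = 0.0568). A second and dimmer Itga1 probe set gave 1.01 and was not called. Itga10, a subunit of cartilage, had a log2 FC of -0.01 (-0.86 to 0.84), and Itga2, known from platelets and epithelia, 1.41 (-0.35 to 3.18). Itga4 and Itga9 are related subunits that bind VCAM1, fibronectin or tenascin. At their brightest probe sets, both had lower signals on every adult array than on any P3 array. Their log2 FC were -0.70 (adjusted p = 0.184) and -1.04 (adjusted p = 0.0625), and neither was called. At a second tested probe set of each gene the stages overlapped, with log2 FC of -0.28 for Itga4 and -0.73 for Itga9, not called. Itgbl1 had a log2 FC of 0.57 (-0.11 to 1.25).

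Among the integrins of white blood cells, 2 of 6 genes were measurable. Itgam, Itgax, Itgb2l and Itgb7 had 6 probe sets, none of which was above background on 3 arrays. Itgb2, the beta subunit of white blood cells, had signals of 44.8, 131 and 52.6 in the adult CSE, against 28.9, 17.1 and 15.6 at P3. Every adult array was higher. Its log2 FC was 1.77 (95% confidence interval 0.61 to 2.94, adjusted p = 0.0746), and it was 2.05 and called without P3 replicate 1 (adjusted p = 0.0408). Itgal, which pairs with Itgb2 on lymphocytes, had a log2 FC of 0.58 (adjusted p = 0.481). Of 8 granulocyte markers, 7 were called higher in the adult. Their summed signal was 8051, 16723 and 3770.1 on adult replicates 1, 2 and 3, against 129 to 414 on the P3 arrays, and adult replicate 2 was the highest array for Itgb2 as well. For 7 macrophage markers the sum was 1287 to 1539 on the adult arrays, against 1174 to 1798 on the P3 arrays. The part of white blood cells in the signal of Itgb2 was not tested. Of the integrin subunits outside the name pattern, Itga2b, the platelet subunit, and Itgae had log2 FC of 0.56 and -0.71, and neither was called.

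**Figure D3:**
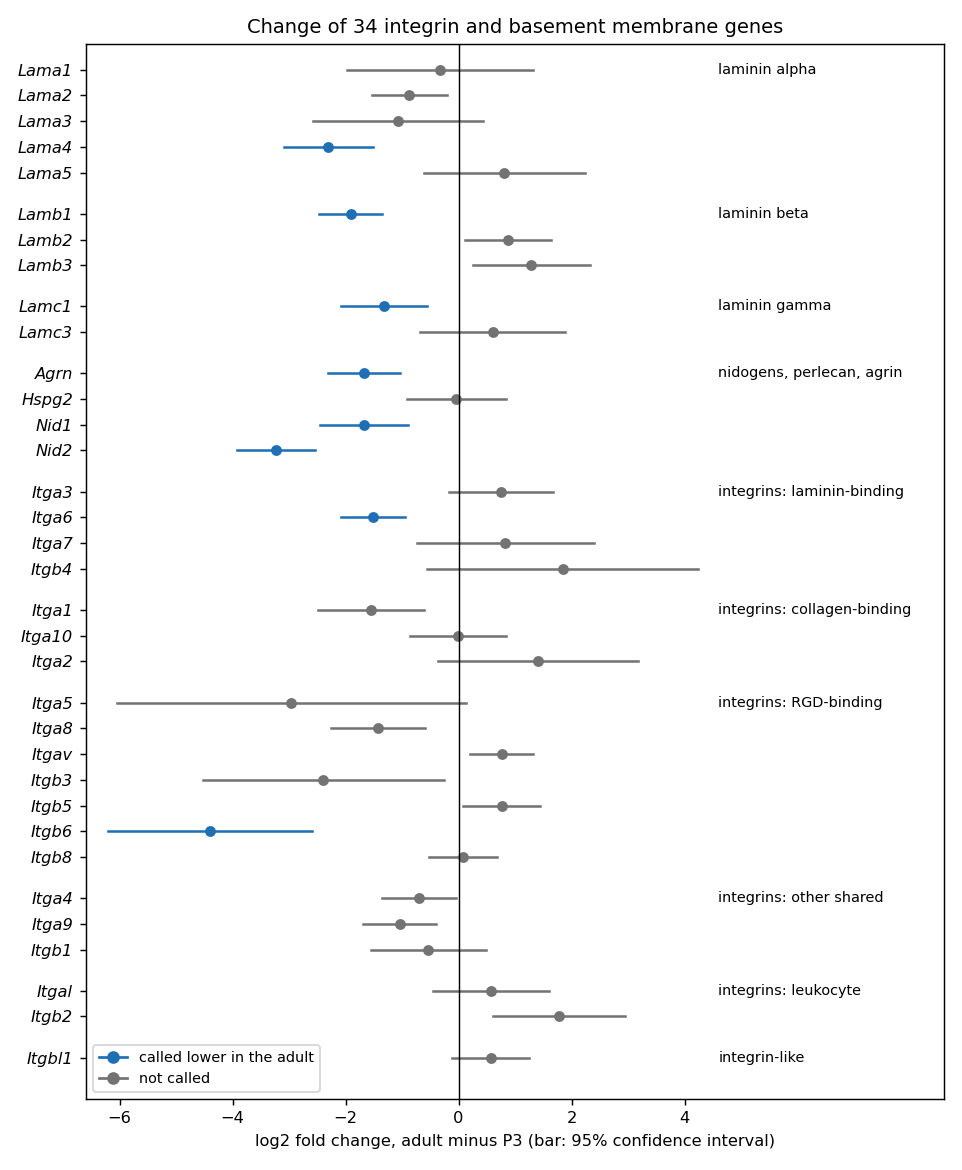
Log2 FC (adult minus P3, horizontal axis) with 95% confidence intervals for the 34 genes measured, 1 row per gene at its brightest probe set, grouped by role, with the 8 genes called lower in the adult in blue and the others in grey. The intervals of Agrn, Lama4, Lamb1 and Nid2 lie wholly below -1, that of Itgb6 is fitted to adult signals below background and is no bound, and those of dim genes such as Itga5 and Itgb4 span more than 4 log2 units.

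Of the 34 genes, 15 had several probe sets that were tested, and in 12 of them all probe sets had the same sign. Itga1, Lama5 and Lamc1 were the exceptions. Of the 5 called genes with several probe sets, Itga6 was called at every one.

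**Figure D4:**
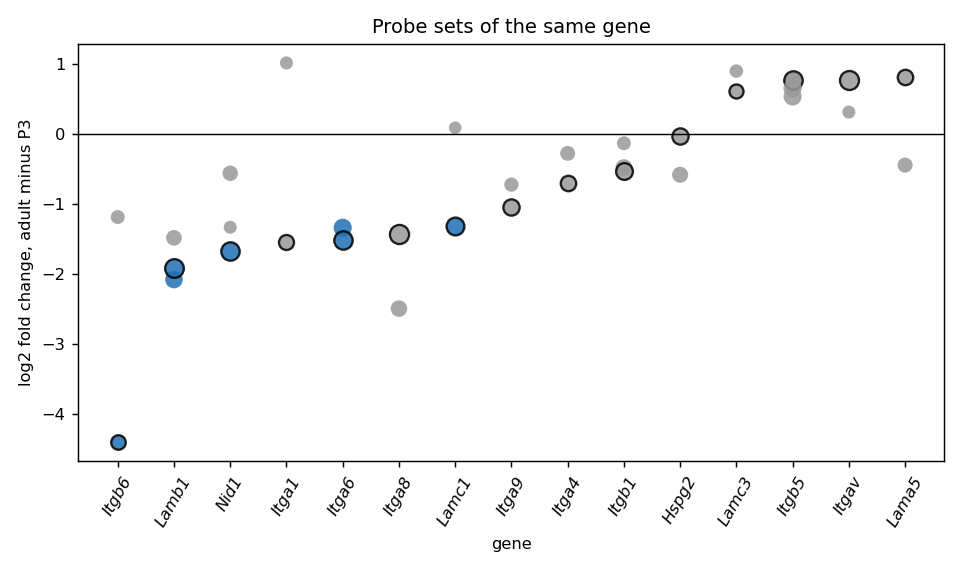
Log2 FC (adult minus P3, vertical axis) of each probe set tested in the 15 genes that had 2 or more, 1 point per probe set, larger for a higher signal, outlined where it is the brightest of its gene and blue where it was called. Itga6 has both probe sets called at -1.34 and -1.52, and Itgb6, Lamc1 and Nid1 have only the brightest called.

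Other basement membrane genes were lower in the adult too. Of 8 basement membrane collagen chains, 4 were lower in the adult and none higher (5.56% and 4.58% of all genes). They were Col18a1 (log2 FC -3.53), Col4a2 (-3.04), Col4a1 (-3.03) and Col4a5 (-1.62), and the median of the 8 was -2.17. Of 14 other basement membrane genes measured, 6 were lower and none higher. Pxdn, the peroxidase that crosslinks collagen IV, had a log2 FC of -3.54, Smoc2 of -3.22, Fbln2, which binds laminin and nidogen, of -3.05, and Fras1, of the embryonic skin basement membrane, of -2.30. The limma adjusted p of Fras1, 0.0492, was just under the threshold. Its signal on P3 replicate 1 was 33.7, beside a background of 33.6, against 151 and 121 on the other P3 arrays. Of 12 other laminin receptors measured, 1 was called lower and 1 higher (5.56% and 4.58% of all genes), 10 were not called, and the median log2 FC was -0.16. The cell surface proteoglycan Sdc1 fell by 2.50 on the log2 scale and its relative Sdc4 rose by 1.17.

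Integrin ligands moved both ways. Of 12 measured, 5 were lower in the adult and 2 higher (5.56% and 4.58% of all genes). Ccn3 (log2 FC -3.49), the tenascin gene Tnc (-3.14), Tgfbi (-2.75) and Postn (-1.74) were the 4 with the largest falls, and Fn1, which encodes fibronectin, fell by 1.12. Ccn1 and Ccn2, matrix-associated proteins of the same family as Ccn3, rose by 1.76 and 1.56. Of 21 genes of integrin activation and the adhesion plaque, 1 was called (10.1% of all genes in either direction), Tns1, an actin-binding protein of adhesion sites, which rose by 1.93 on the log2 scale (adjusted p = 0.0120). The median of these 21 was -0.07. None of 6 integrin-associated tetraspanins and partners was called, and all 6 had a positive log2 FC, of 0.28 to 0.97.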

How the data were processed

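The authors hybridised 1-colour Affymetrix Mouse Genome arrays and deposited MAS5.0 intensities, unlogged, with the trimmed mean of every array set to 100. Their processing notes give GCOS 1.2, and their methods another version. The deposited intensities were used without further normalization, 0 columns were left unmatched, and no detection calls were used. Genes were named from an array annotation dated 2016, in which 34945 probe sets named 1 gene. The background of an array was the 90th percentile of its signals at 81 receptor probe sets (odour, pheromone and bitter taste), and 28967 probe sets that exceeded it on 3 arrays or more were tested. Log2 signals were fitted with limma 3.58.1 in R 4.3.3 (lmFit on stage, eBayes with trend, Benjamini-Hochberg adjustment), in place of the SAM test of the methods, which relabels samples. The procedure was tested on simulated data. SE is limma's moderated standard error. With 3 arrays a stage, the smallest p of an exact two-sided permutation test is 0.1. A gene was represented by its tested probe set of highest mean signal. If no array of the dimmer stage exceeded background, the fold is a bound set against background.

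The members and lists were chosen with earlier results of these data known. Per-array values are given for called genes, Itgb1, Lamc1 and genes whose probe sets differ in call, and were added for further members after their values were seen. Of each list of partner genes, up to 4 called members per direction were to be named, and Fn1 was added after its value was seen. Results were recomputed without each array in turn, with quantile-normalized or median-scaled arrays, no filter or a filter of 4 arrays, signals floored at or raised by background, no trend, quality weights, a replicate block, and the mean over a gene's probe sets. Matching by replicate number was checked. The pools came from separate dissections, and the number of arrays limits the precision.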

Additional observations from a re-analysis of the deposited data

How the results depend on the processing

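With all arrays and no other change, 8 genes (10 probe sets) were called lower in the adult and 0 higher, 2 of them integrins and 6 laminin, nidogen or agrin genes. With arrays scaled to the same median the counts were 2 genes, 2 probe sets, 1 integrin and 1 of the other family, and without the intensity trend 4, 4, 1 and 3. Over all 28967 probe sets, 285 and 491 were then called lower, beside 1127 in the reported setting. With array quality weights, 6 genes (9 probe sets) were called higher and 11 genes (16 probe sets) lower. By family, 11 integrin genes and 6 of the other family were called. The weights were 5.03 for adult replicate 3 and 0.154 for P3 replicate 1. Over all 28967 probe sets, 4404 were then called higher and 3188 lower. The integrin count was 4 with quantile normalization, 5 with signals floored at background and 1 with a filter of at least 4 arrays. In the other family, 5, 6 and 5 genes were called in these settings. Leaving out 1 array gave 5 to 9 genes and 6 to 13 probe sets lower, 0 to 1 genes and 0 to 2 probe sets higher, 1 to 4 integrins and 4 to 6 of the other family. Over all probe sets, 343 to 1442 were then called lower and 234 to 1396 higher. The cause was not tested.

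Nid2 was called in all 16 other settings, Lama4 and Lamb1 in 15, Agrn and Itga6 in 14, Itgb6 in 13, Nid1 in 9 and Lamc1 in 3. Itgb6, whose brightest probe set passed the background filter only through its P3 arrays, was not called with a filter of 4 arrays. Of 543 values of single genes under other settings, 476 kept their direction and call, 29 lost and 23 gained a call, and 15 turned sign, none of them of a called gene. With 1 array left out, Itga10 ranged from -0.36 to 0.25, Itgb8 from -0.15 to 0.24, Hspg2 from -0.31 to 0.38 and Lama1 from -0.69 to 0.27, so that each turned sign. With quality weights they were 0.64, -0.088, 0.37 and 0.56, and Itga10 was 0.014 with arrays scaled to the same median.

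Arrays with the same replicate number correlated in their deviations from the stage means at 0.18, 0.22 and 0.08, so the numbers were not taken to pair the samples, although every array correlated best with its own number. With the replicate number as a block, 9 genes were called lower and Itga8 was among them (adjusted p = 0.0187). Signals near background limit the dim genes, such as Itga5, Itgb6 and Lama3.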
